A study of Mus musculus with 20 samples.

Results

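Cell cycle RNA was examined by phase in macrophages and monocytes sorted from MC38 tumours, which grow from a mouse colon carcinoma line. The list holds 44 genes of S phase and mitosis: 17 work in DNA replication and 27 in mitosis. All 44 were found among the 36528 gene models of each file by matching Entrez numbers to mouse symbols, and all 44 passed the filter on low counts. The 4 groups were macrophages from control tumours, macrophages from tumours treated with an antibody to PD-L1 (labelled aPDL1), monocytes from control tumours and monocytes from treated tumours, with 5 libraries each, made 7 days after treatment started. The sources used here give no mouse strain, age, antibody dose, control agent or sort gates. Every control library carries a lower sample number than every treated one, so treatment cannot be told apart from the order of these numbers. No label states that replicate libraries stem from different mice; if they do not, the p-values reflect technical spread between samples alone.

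A dividing cell first copies its DNA in S phase and later separates the copies in mitosis. Replication genes encode the helicase that opens DNA, the clamp and enzymes that copy it, and the enzymes that make its building blocks, and E2F transcription factors drive many of them as S phase begins. Mitosis genes encode the kinases that start division, the motors and other proteins of the spindle, the kinetochores that hold chromosomes and the ubiquitin machinery that ends division. Many of these are repressed in resting cells by the DREAM complex and later switched on with the help of MYB and FOXM1, through a promoter element called the cell cycle genes homology region. Tumour monocytes are recruited from the blood and can mature into macrophages, and tumour macrophages can also divide in place.

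Libraries held 30191509 to 36514133 counts. Levels are given in CPM, counts scaled by TMM to a common library size, and replicates are listed in the order 1 to 5, a number that only names a library. The labelled cell types were checked against defining markers. Adgre1, the macrophage antigen F4/80, averaged 1071 and 1341 CPM in control and treated macrophages and 311 and 383 CPM in control and treated monocytes. Of 10 macrophage markers, 7 were higher and 1 lower in macrophages, in control and in treated tumours (adjusted p under 0.05). Of all genes, 24% and 28.2% were higher. Fcgr1, on the same list, averaged 680 and 968 CPM in control and treated macrophages and 934 and 1333 CPM in control and treated monocytes. Ly6c2, a marker of inflammatory monocytes, averaged 910.3 and 1575 CPM in control and treated monocytes and 5.42 and 11.1 CPM in control and treated macrophages.

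Collagen RNA, which fibroblasts can make, differed widely between libraries and between treatments. The cells it came from in these libraries were not tested. The summed level of Col1a1, Col1a2, Col3a1, Col5a1 and Col5a2 lay between 55.8 and 1376 CPM in control macrophages and between 27.9 and 218 CPM in treated macrophages. It lay between 219 and 2153 CPM in control monocytes and between 35.0 and 313 CPM in treated monocytes. Most of this sum was Col3a1, averaging 539 and 59.4 CPM in control and treated macrophages and 883 and 117 CPM in control and treated monocytes. Col1a1 averaged 9.92, 3.49, 14.7 and 6.82 CPM in the same order. Of the 10 control libraries, 8 were above every treated library of their cell type in collagen level, the log2 of this sum plus 1. The other 2 were macrophage control replicate 4 and monocyte control replicate 5, with collagen levels of 5.83 and 7.78. Their sample numbers are neighbours, and no label states whether they stem from 1 tumour. Counts of called genes that rest on the control libraries are therefore also given with collagen level as a covariate; values of single genes are given without it.

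The promoters of the genes were searched for 3 short sequence elements. RefSeq windows from 250 bases before to 50 bases after the gene start, on build GRCm38.p6, were at hand for 36 of the 44 genes, 22 of mitosis and 14 of replication. The homology region letters TTTGAA, or TTCAAA on the other strand, stood in 16 of 22 mitosis windows (72.7%), in 1 of 14 replication windows (7.14%) and in 18.1% of all 27025 windows. The E2F letters TTCCCGC, or GCGGGAA on the other strand, stood in 0 of 22 mitosis windows, in 5 of 14 replication windows (35.7%) and in 4.66% of all windows. CCAAT, or ATTGG on the other strand, stood in 19 of 22 mitosis windows (86.4%), in 9 of 14 replication windows (64.3%) and in 37.9% of all windows. A match is a description of letters and not a measured site, and no share was tested. Among other mitosis genes the homology region letters stood in 26 of 39 windows (66.7%), the E2F letters in 4 (10.3%) and CCAAT in 26 (66.7%). Among other replication genes they stood in 6 of 30 (20%), 14 (46.7%) and 15 (50%), so CCAAT was common in both phases and the E2F letters were also present in some mitosis windows.

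Promoters of 4 mitosis genes whose windows hold the homology region letters, and of 3 replication genes, are shown so that the elements can be seen, from 130 bases before to 20 bases after the start. Capitals mark the letters of the 3 searched elements on either strand. In the mitosis genes below, TTTGAA stands near the end of the window beside one or more CCAAT or ATTGG elements.
Cdk1: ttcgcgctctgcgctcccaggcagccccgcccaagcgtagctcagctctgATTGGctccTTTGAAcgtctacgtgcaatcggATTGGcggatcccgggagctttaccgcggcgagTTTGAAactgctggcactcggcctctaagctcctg
Ccnb2: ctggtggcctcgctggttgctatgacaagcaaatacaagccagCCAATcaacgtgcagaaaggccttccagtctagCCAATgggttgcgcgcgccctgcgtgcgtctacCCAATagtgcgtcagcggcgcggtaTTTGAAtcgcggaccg
Hmmr: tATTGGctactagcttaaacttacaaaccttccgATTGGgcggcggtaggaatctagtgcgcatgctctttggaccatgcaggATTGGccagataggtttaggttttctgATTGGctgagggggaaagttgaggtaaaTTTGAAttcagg
Cdc20: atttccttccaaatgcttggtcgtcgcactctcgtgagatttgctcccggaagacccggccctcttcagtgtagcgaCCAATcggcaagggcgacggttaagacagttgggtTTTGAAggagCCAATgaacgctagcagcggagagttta
Rrm1: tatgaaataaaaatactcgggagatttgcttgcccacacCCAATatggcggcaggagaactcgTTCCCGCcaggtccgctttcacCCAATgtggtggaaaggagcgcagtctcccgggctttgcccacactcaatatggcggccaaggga
Uhrf1: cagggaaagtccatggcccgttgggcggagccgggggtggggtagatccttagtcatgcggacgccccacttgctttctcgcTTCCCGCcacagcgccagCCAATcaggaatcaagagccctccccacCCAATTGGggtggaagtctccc
Rrm2: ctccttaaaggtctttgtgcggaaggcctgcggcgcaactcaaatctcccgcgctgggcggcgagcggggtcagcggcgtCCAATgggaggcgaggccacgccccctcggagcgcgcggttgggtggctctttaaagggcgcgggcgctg
The windows are chr10:69352893-69353042 on the minus strand for Cdk1, chr9:70421535-70421684 on the minus strand for Ccnb2, chr11:40733418-40733567 on the minus strand for Hmmr and chr4:118437324-118437473 on the minus strand for Cdc20. Those of the replication genes are chr7:102441565-102441714 on the plus strand for Rrm1, chr17:56303207-56303356 on the plus strand for Uhrf1 and chr12:24708124-24708273 on the plus strand for Rrm2. The windows of Nusap1, Birc5 and Mad2l1, 3 mitosis genes described below, hold none of the 3 elements. Rrm1 and Uhrf1 hold the E2F letters in these windows, and Rrm2 holds CCAAT alone. In Uhrf1 the last CCAAT and an ATTGG overlap in the run CCAATTGG.

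Cell cycle RNA was higher in macrophages than in monocytes, in both phases and under both treatments. Between control groups, all 17 replication genes and 25 of 27 mitosis genes were higher in macrophages at an adjusted p under 0.05, while 24% of all 15390 tested genes were higher. The median log2 difference was 1.71 for each phase, and the median of all tested genes was -0.0044. The exceptions were Cdc20, an activator of the anaphase-promoting complex, at 1.12 (SE 0.45, adjusted p = 0.050), and Ube2c, the ubiquitin-conjugating enzyme of that complex, at 1.03 (adjusted p = 0.066). In the libraries, all 5 macrophage values lay above all 5 monocyte values for 17 of 17 replication and 26 of 27 mitosis genes, the one overlap being Cdk1, while 14.3% of all tested genes separated in this way. With collagen level as a covariate, 17 and 27 genes were called higher, Cdc20 and Ube2c included, with medians of 1.82 and 2.07. The share of all genes called in that fit is not given.

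Between the treated groups the log2 differences had higher medians, and the test of that change is given with the treatment effects. Between treated groups, 17 of 17 replication and 27 of 27 mitosis genes were higher in macrophages, while 28.2% of all genes were higher, with median log2 differences of 2.54 and 3.02. The largest difference was that of Hmmr, a spindle protein and hyaluronan receptor, at 4.09 (SE 0.56, adjusted p = 5.5e-06), and the smallest that of Pcna, the sliding clamp of DNA polymerase, at 0.66 (SE 0.11, adjusted p = 4.7e-05). For all 44 genes, all treated macrophage libraries lay above all treated monocyte libraries, as they did for 25% of all tested genes. In these bulk samples, fewer dividing cells and less of each RNA per cell cannot be told apart.

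Levels between genes are compared on the deposited nRPKM scale, which divides by gene length. Mcm6 was the highest replication gene, averaging 84.4 nRPKM in control macrophages, 71.9 in treated macrophages, 27.3 in control monocytes and 12.5 in treated monocytes. Top2a was the highest mitosis gene, with 70.1, 43.4, 22.1 and 4.33 nRPKM in the same order. Chek1 in replication and Cenpf in mitosis were the lowest, at 3.81 and 2.95 nRPKM in control macrophages.

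**Figure D1:**
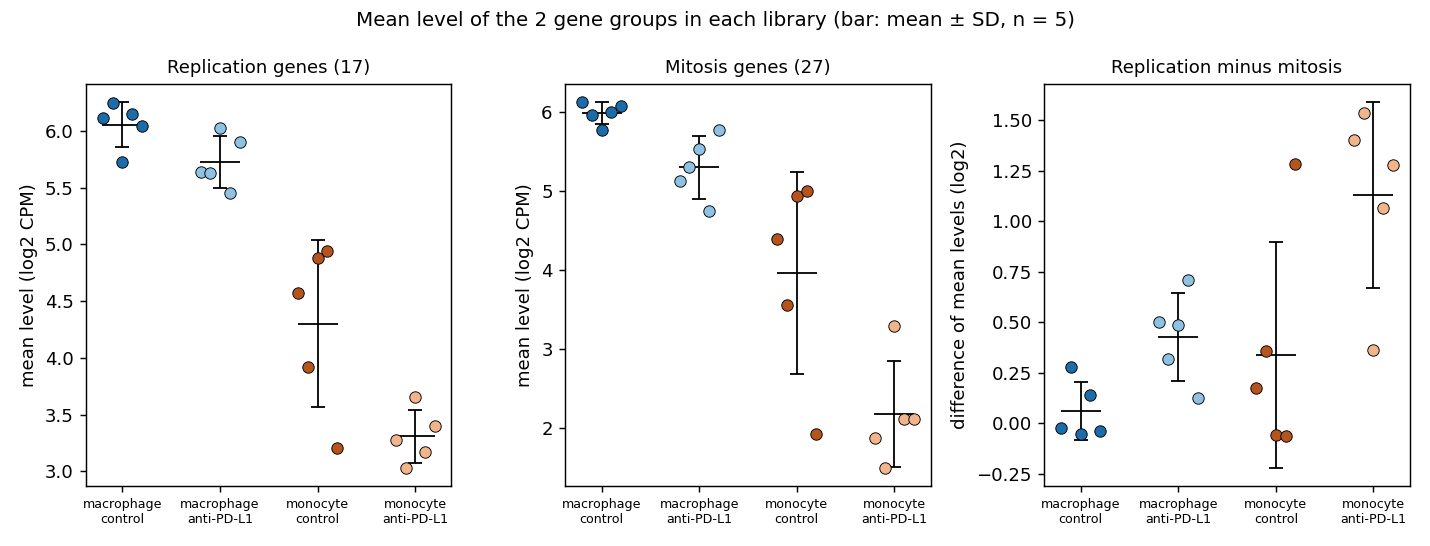
Mean log2 CPM of the 17 replication genes (left), of the 27 mitosis genes (middle) and the first minus the second (right), 1 point per library for the 4 groups, with mean and SD of 5 libraries. Control monocyte replicate 5 sits among the treated monocytes, and treated monocyte replicate 3 sits above the other treated ones in mitosis genes.

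Averaged over the genes of a phase, mitosis RNA spread more between libraries than replication RNA in 3 of the 4 groups, control macrophages being the exception. The mean mitosis level was 5.99 ± 0.14 log2 CPM in control macrophages, 5.30 ± 0.39 in treated macrophages, 3.96 ± 1.28 in control monocytes and 2.18 ± 0.67 in treated monocytes (SD, n = 5). The mean replication level was 6.06 ± 0.20, 5.73 ± 0.23, 4.30 ± 0.74 and 3.31 ± 0.24 log2 CPM in the same order (SD, n = 5). Replication minus mitosis was thus 0.06 ± 0.14, 0.43 ± 0.22, 0.34 ± 0.56 and 1.13 ± 0.46 log2 units (SD, n = 5). These averages are a description and were not tested.

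In monocytes, replication genes fell after anti-PD-L1. Of 17 genes, 15 were lower at an adjusted p under 0.05, while 15.4% of all tested genes were lower and 9.92% higher, with a median log2 change of -1.10 against 0.02 for all genes. Mcm4, at -0.40 (SE 0.15, adjusted p = 0.053), and Pcna, at 0.07 (SE 0.11, adjusted p = 0.66), did not pass. For all 17 genes the control and treated libraries overlapped, and in the 15 that passed control replicate 5 lay within or below the treated range.

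The number of calls, here and for mitosis genes below, changed with collagen RNA in the fit and with the pairing of libraries. The share of all genes called in these fits of monocytes is not given, so a loss of calls is not shown to be particular to these genes. The covariate fits take out what collagen level and treatment share. With neighbouring sample numbers as a replicate block, 8 replication genes were called lower. With collagen level as a covariate, with a summary of 14 fibroblast markers as a covariate, or without the 6 or the 8 control libraries highest in collagen, 0 were called, and the median was -0.91, -0.89, -0.29 and 0.07 in that order. Leaving out 8 libraries keeps 1 control library per cell type, whose spread is then assumed to be that of the other groups. Of the 14 fibroblast markers 9, and of the 5 collagens 3, were lower in treated monocytes, while 15.4% of all tested genes were lower. The sum of the fibroblast markers ranged from 208 to 1346 CPM in control and from 95.1 to 313 CPM in treated monocytes. The part of fibroblast RNA in these results was not tested beyond these fits.

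Other cell types that divide were looked for by their markers. Of 9 epithelial markers, 3 were tested and 0 changed in monocytes; their sum ranged from 30.2 to 43.4 CPM in control and from 14.5 to 44.8 CPM in treated monocytes, nearly all of it Cdh1. Cldn3 and Cldn4 were at 0 in all 5 treated monocyte libraries, and Krt8 averaged 0.058 and 0.059 CPM in control and treated monocytes. Of the T cell and NK cell markers, 10 and 4 were tested and 0 changed in monocytes. Of 7 myeloid progenitor markers, 4 were tested and only Cd34, which stromal cells also express, was lower in treated monocytes. That is 25% of the 4, while 15.4% of all tested genes were lower and 25.3% were called in either direction. The sum of the progenitor markers ranged from 36.9 to 347 CPM in control and from 14.6 to 78.1 CPM in treated monocytes, most of it Cd34. Elane, a granule protease, and Mpo, a granule peroxidase, both abundant in progenitors, averaged 0.216 and 0.367 CPM in control and 0.040 and 0.158 CPM in treated monocytes. Kit, a receptor of progenitors, averaged 2.84 and 4.41 CPM, and Ctsg, another granule protease, 0.493 and 0.455 CPM, in control and treated monocytes, and neither passed. The part of these cells in the results was not tested.

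The helicase is built from Mcm2 to Mcm7 and activated with the GINS complex, of which Gins2 is a subunit. Mcm5 counted 51.3, 33.6, 63.2, 72.1 and 23.1 CPM in control monocytes and 23.9, 18.8, 25.3, 19.5 and 25.7 CPM in treated monocytes. Control replicates 3 and 4 were highest and replicate 5 lay inside the treated range. The log2 change was -1.10 (SE 0.23, adjusted p = 0.0048). Mcm2 counted 45.3, 26.6, 62.96, 53.5 and 15.2 CPM in control and 17.4, 12.6, 16.4, 14.3 and 17.04 CPM in treated monocytes, so the treated libraries kept within a narrow band and control replicate 5 lay in it. Its log2 change was -1.39 (SE 0.27, adjusted p = 0.0039). The other subunits that passed were Mcm3 at -0.90, Mcm6 at -1.13, Mcm7 at -1.29 and Gins2 at -1.02.

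Nucleotide supply rests on ribonucleotide reductase, made of Rrm1 and Rrm2, on thymidylate synthase (Tyms) and on thymidine kinase (Tk1). Rrm2 counted 41.1, 18.6, 57.5, 71.99 and 5.91 CPM in control and 4.60, 3.80, 16.3, 6.46 and 6.94 CPM in treated monocytes. Treated replicate 3 was the highest of its group and control replicate 5 the lowest of its own. Rrm2 had the largest fall of the replication genes, -2.35 (SE 0.48, adjusted p = 0.0047), while its partner Rrm1 changed by -0.76 (SE 0.21, adjusted p = 0.016). Tyms counted 7.13, 4.70, 8.13, 9.78 and 1.97 CPM in control and 2.04, 2.30, 2.93, 2.02 and 3.11 CPM in treated monocytes, with a log2 change of -1.36 (SE 0.30, adjusted p = 0.0060). Here the first 4 control libraries lay above every treated one and control replicate 5 lay below all 5. Tk1 changed by -1.71 (SE 0.38, adjusted p = 0.0060).

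Pcna stood apart from the other replication genes. It has 2 named pseudogenes, and only uniquely aligned reads were counted, so its level is uncertain. It counted 17.95, 16.6, 18.7, 18.9 and 18.5 CPM in control and 19.2, 20.3, 18.3, 16.1 and 21.5 CPM in treated monocytes, and the groups overlapped throughout. Uhrf1, which keeps DNA methylation through replication, counted 14.1, 7.52, 19.7, 13.7 and 3.48 CPM in control and 3.72, 2.62, 5.77, 2.87 and 3.01 CPM in treated monocytes. Only control replicate 5 fell inside its treated range, and the log2 change was -1.70 (SE 0.33, adjusted p = 0.0040).

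Regulators of S phase entry had smaller changes than Rrm2 or Uhrf1. E2f1, a transcription factor of this step, counted 33.2, 23.2, 44.5, 36.8 and 15.1 CPM in control and 19.9, 19.8, 19.6, 18.8 and 20.3 CPM in treated monocytes, so that its treated libraries were nearly level. The log2 change was -0.64 (SE 0.19, adjusted p = 0.021), and control replicate 5 lay below all treated libraries. Cyclin E1 (Ccne1) counted 14.99, 9.49, 17.03, 19.7 and 4.88 CPM in control and 5.63, 5.23, 9.55, 4.86 and 6.57 CPM in treated monocytes, a change of -1.05 (SE 0.27, adjusted p = 0.010). Its control replicate 5 was at the low end of the treated range. Cyclin E2 (Ccne2) counted 8.51, 5.48, 8.03, 8.64 and 4.14 CPM in control and 5.44, 3.77, 5.15, 4.14 and 3.69 CPM in treated monocytes, a change of -0.65 (SE 0.21, adjusted p = 0.032), with control replicate 5 again inside the treated range. Chek1, the kinase that guards stalled replication, changed by -1.65 (SE 0.34, adjusted p = 0.0047).

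Mitosis genes fell in monocytes as well. Of 27 genes, 26 were lower, against the same 15.4% of all tested genes, with a median log2 change of -2.14. Kif23, a motor of the central spindle, was at -0.71 (SE 0.26, adjusted p = 0.052) and did not pass. Only Cenpa, the centromere histone, had control libraries that all lay above all treated ones, as 2.13% of all tested genes had, with 30.9, 29.5, 35.7, 44.99 and 24.99 CPM against 16.3, 15.4, 24.9, 17.7 and 19.9 CPM. With the replicate block 13 were called. With the collagen or the fibroblast covariate, or without the 6 or 8 collagen-rich control libraries, 0 were called, with medians of -1.36, -1.36, -0.63 and 0.50. With a collagen slope for each cell type as covariates, 0 genes of either phase were called, and the medians were -0.03 for replication and 0.08 for mitosis genes.

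Entry into mitosis depends on the kinase Cdk1 and its cyclins. Cdk1 counted 57.04, 29.2, 77.2, 107 and 5.98 CPM in control and 5.34, 4.19, 20.5, 7.80 and 7.60 CPM in treated monocytes, a log2 change of -2.60 (SE 0.53, adjusted p = 0.0047). Control replicate 5 lay among the treated libraries, of which replicate 3 was highest. Cyclin A2 (Ccna2) counted 43.5, 24.8, 56.4, 58.5 and 11.1 CPM in control and 9.19, 8.58, 19.3, 10.1 and 11.2 CPM in treated monocytes, and its log2 change was -1.73 (SE 0.33, adjusted p = 0.0039). Cyclin B2 (Ccnb2) counted 12.6, 9.43, 20.4, 22.9 and 4.71 CPM in control and 3.95, 3.84, 6.84, 3.20 and 4.17 CPM in treated monocytes, a change of -1.67 (SE 0.31, adjusted p = 0.0036). In both cyclins control replicate 5 lay below treated replicate 3, and the other 4 control libraries lay above it. Cyclin B1 (Ccnb1) counted 2.54, 1.54, 4.50, 4.04 and 0.267 CPM in control and 0.485, 0.0698, 1.47, 0.816 and 0.376 CPM in treated monocytes, a change of -1.99 (SE 0.58, adjusted p = 0.020), and its control replicate 5 lay below 4 treated libraries. A pseudogene copy, Ccnb1-ps, shares sequence with it and only uniquely aligned reads were counted, so its level is uncertain.

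Regulators of the mitotic programme followed the same pattern. Foxm1, a transcription factor of mitosis genes, counted 23.9, 10.3, 40.5, 27.6 and 3.41 CPM in control and 3.17, 2.93, 10.7, 3.59 and 2.33 CPM in treated monocytes, a log2 change of -2.21 (SE 0.49, adjusted p = 0.0058). Plk1, a kinase of spindle assembly and mitotic exit, counted 9.81, 5.36, 15.4, 15.6 and 1.90 CPM in control and 1.75, 1.43, 3.93, 2.06 and 1.71 CPM in treated monocytes, a change of -2.14 (SE 0.41, adjusted p = 0.0039). For both genes control replicate 5 was within the treated range. Aurka, the kinase of spindle poles, and Aurkb, the kinase of the chromosomal passenger complex, changed by -1.20 and -1.54, and Birc5 and Cdca8 of the same complex by -2.45 and -1.89.

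Chromosome proteins showed both large and small changes. Top2a, which untangles DNA strands, counted 132, 53.6, 191, 199.998 and 12.4 CPM in control and 14.6, 8.79, 55.1, 16.4 and 19.3 CPM in treated monocytes, a log2 change of -2.36 (SE 0.54, adjusted p = 0.0068). Control replicates 3 and 4 were highest, and treated replicate 3 reached the level of control replicate 2. Mki67, the proliferation antigen that coats chromosomes, counted 43.3, 28.95, 64.5, 46.6 and 13.97 CPM in control and 10.2, 13.5, 24.1, 16.8 and 12.7 CPM in treated monocytes, a change of -1.35 (SE 0.31, adjusted p = 0.0071). Its fall was smaller than that of Top2a. Among kinetochore and checkpoint genes, Cenpf and Cenpe changed by -2.78 and -2.35, Bub1 by -2.27, Mad2l1 by -1.61, Bub1b by -1.18 and Cenpa by -0.82.

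The spindle and the exit from mitosis gave the largest change. Hmmr counted 8.88, 5.26, 13.002, 13.5 and 0.668 CPM in control and 0.744, 0.453, 2.43, 0.751 and 0.855 CPM in treated monocytes. Control replicate 5 lay among 4 treated libraries under 1 CPM. Its log2 change, -2.97 (SE 0.54, adjusted p = 0.0036), was the largest of all 44 genes. Cdc20 counted 19.02, 9.96, 31.9, 31.04 and 3.34 CPM in control and 2.04, 1.92, 8.37, 1.86 and 3.56 CPM in treated monocytes, a change of -2.42 (SE 0.49, adjusted p = 0.0047), with control replicate 5 below treated replicates 3 and 5. Of the other spindle genes, Nusap1 and Kif11 changed by -2.63 and -2.54, Tpx2 by -2.24, Prc1 by -2.002 and Kif20a by -1.72, while Ube2c changed by -2.45.

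**Figure D2:**
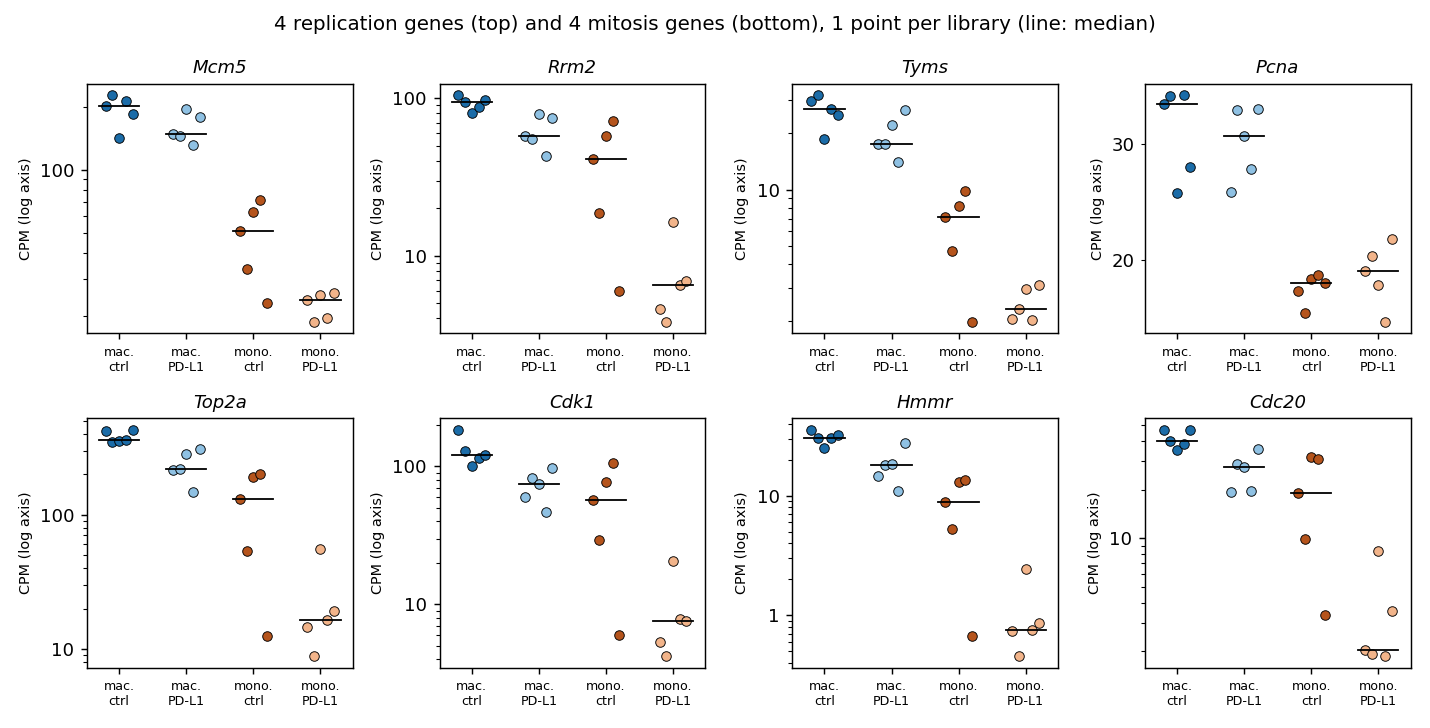
CPM on a log axis of the replication genes Mcm5, Rrm2, Tyms and Pcna (top) and the mitosis genes Top2a, Cdk1, Hmmr and Cdc20 (bottom), 1 point per library, replicates 1 to 5 from left to right in each group (mac., macrophage; mono., monocyte; ctrl, control; PD-L1, anti-PD-L1), with the median as a line. In 7 of the 8 genes control monocyte replicate 5 lies at the treated level, and Pcna is level across the monocytes.

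In macrophages the same genes were not called. At an adjusted p under 0.05, 0 of 17 replication and 0 of 27 mitosis genes were lower by edgeR's test, and 0 were higher, while of all genes 4.65% were called, 1.73% as higher and 2.92% as lower. An unadjusted p under 0.05 was reached by 1 replication and 3 mitosis genes, beside 23.5% of all genes. DESeq2 called 1 mitosis gene, Cenpa, beside 1878 of all 15390 genes. With limma-voom 0 genes of either phase were called, beside 191 of all genes. Here and below, SE and p of edgeR's test on all 20 libraries rest on 1 spread per gene over all 4 groups. They do not measure the spread of the macrophage libraries alone. The mean mitosis level had an SD of 0.14 and 0.39 in control and treated macrophages, and of 1.28 and 0.67 in control and treated monocytes. The edgeR fit of the 10 macrophage libraries alone called 18 mitosis and 2 replication genes as lower, with 8.30% of all genes called in either direction. All 44 log2 changes were below 0. The median was -0.29 for replication genes, from -0.60 to -0.07, and -0.66 for mitosis genes, from -1.02 to -0.45, beside -0.01 for all genes.

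The macrophage values were compared with collagen RNA in the same way as the monocyte values. Without the 8 collagen-rich control libraries the medians were -0.42 for replication and -0.69 for mitosis genes, and without the 6 highest they were -0.46 and -0.61. With the shared collagen covariate they were -0.11 and -0.081, and with a collagen slope for each cell type they were -0.45 and -0.60, with 0 genes called in each of these fits. The fits without libraries hold 1 and 2 macrophage controls, and where 1 is left it is assumed to vary like the libraries of the other groups. Under these fits at most 0.45% of all genes were called for treatment in macrophages. Of the 14 fibroblast markers 6, and of the 5 collagens 3, were lower in treated macrophages, while 2.92% of all tested genes were lower. The sum of the fibroblast markers ranged from 209 to 966 CPM in control and from 158 to 285 CPM in treated macrophages. The part of fibroblast RNA was not tested beyond these fits.

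Several mitosis genes had macrophage groups that did not overlap. All 5 treated libraries lay below all 5 control libraries for 11 of 27 mitosis genes (Top2a, Cdk1, Aurka, Bub1, Cenpe, Cenpf, Tpx2, Kif11, Nusap1, Foxm1 and Ube2c) and for 1 of 17 replication genes, Rrm2, while 2.83% of all tested genes separated in this direction. Top2a counted 418, 348, 351, 362 and 429 CPM in control and 214, 218, 281, 148 and 306 CPM in treated macrophages, a log2 change of -0.71 (SE 0.51, adjusted p = 0.44). Cdk1 counted 185, 129, 101, 114 and 122 CPM in control and 60.2, 83.1, 74.7, 47.01 and 98.1 CPM in treated macrophages, a change of -0.84 (SE 0.49, adjusted p = 0.32). In these 2 genes the highest treated library stayed under the lowest control library, most narrowly in Cdk1. Foxm1 counted 53.9, 48.8, 52.4, 57.2 and 72.8 CPM in control and 32.3, 32.4, 47.2, 22.9 and 44.02 CPM in treated macrophages, a change of -0.67 (SE 0.45, adjusted p = 0.40).

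Other mitosis genes came close to separation. Ccna2 counted 129.99, 136, 104, 138 and 129 CPM in control and 70.1, 79.03, 91.3, 54.3 and 107 CPM in treated macrophages, with 1 treated library above 1 control library, and its log2 change was -0.66 (SE 0.32, adjusted p = 0.21). Hmmr counted 35.7, 30.3, 25.1, 30.6 and 32.04 CPM in control and 14.7, 18.1, 18.4, 10.9 and 27.8 CPM in treated macrophages, a change of -0.77 (SE 0.47, adjusted p = 0.35). Its treated replicate 5 lay above control replicate 3. Plk1 counted 32.3, 32.1, 26.97, 36.8 and 37.97 CPM in control and 18.1, 19.3, 25.6, 14.2 and 27.6 CPM in treated macrophages, a change of -0.67 (SE 0.37, adjusted p = 0.30). Cdc20 counted 47.1, 40.2, 35.2, 38.4 and 47.1 CPM in control and 19.4, 28.9, 27.8, 19.8 and 35.97 CPM in treated macrophages, a change of -0.66 (SE 0.45, adjusted p = 0.41), again with only treated replicate 5 inside the control range.

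Mki67 and the B cyclins overlapped between macrophage groups. Mki67 counted 201, 232, 224, 300.1 and 285 CPM in control and 153, 155, 222, 104 and 236 CPM in treated macrophages, a log2 change of -0.51 (SE 0.30, adjusted p = 0.33). Ccnb2 counted 61.8, 56.6, 46.3, 58.8 and 54.8 CPM in control and 34.7, 37.5, 43.8, 31.5 and 54.1 CPM in treated macrophages, a change of -0.46 (SE 0.29, adjusted p = 0.36). Treated replicate 5 was the highest treated library of both genes. Ccnb1 counted 10.2, 7.78, 6.94, 7.93 and 8.09 CPM in control and 3.78, 5.77, 4.49, 2.09 and 7.44 CPM in treated macrophages, a change of -0.80 (SE 0.53, adjusted p = 0.40). Treated replicate 4 was the lowest of its group in each of these 3 genes.

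Replication genes in macrophages overlapped more. Rrm2 counted 105, 95.1, 80.3, 87.97 and 97.6 CPM in control and 57.8, 55.3, 79.4, 43.2 and 74.8 CPM in treated macrophages, a log2 change of -0.59 (SE 0.44, adjusted p = 0.46). Mcm5 counted 203, 228, 142, 213 and 186 CPM in control and 149, 146, 196, 131 and 180.1 CPM in treated macrophages, and Mcm2 counted 113, 155, 102, 153 and 142 CPM and 99.7, 103, 144, 88.1 and 119 CPM. Control replicate 3 was the lowest control library of all 3 genes and lay below some treated libraries of both Mcm genes. Tyms counted 29.6, 32.001, 18.5, 27.04 and 24.9 CPM in control and 17.5, 17.6, 22.2, 14.02 and 26.5 CPM in treated macrophages, Uhrf1 counted 43.1, 54.2, 39.98, 59.1 and 56.1 CPM and 38.4, 35.9, 55.4, 32.9 and 43.3 CPM, and Pcna counted 34.5, 35.4, 25.2, 35.5 and 27.6 CPM and 25.4, 33.7, 30.8, 27.5 and 33.9 CPM. None of these 5 passed, with log2 changes of -0.28, -0.26, -0.43, -0.29 and -0.07 for Mcm5, Mcm2, Tyms, Uhrf1 and Pcna.

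The regulators of S phase entry overlapped between the macrophage groups. E2f1 counted 49.9, 69.8, 53.4, 68.5 and 66.1 CPM in control and 53.8, 55.1, 59.1, 55.7 and 62.3 CPM in treated macrophages, a log2 change of -0.11 (SE 0.19, adjusted p = 0.78). Ccne1 counted 35.3, 38.4, 30.3, 35.2 and 32.5 CPM in control and 25.7, 27.1, 35.4, 22.8 and 29.8 CPM in treated macrophages, a change of -0.29 (SE 0.26, adjusted p = 0.55). Ccne2 counted 35.98, 22.2, 20.7, 20.1 and 19.2 CPM in control and 15.97, 14.6, 22.3, 14.97 and 17.5 CPM in treated macrophages, a change of -0.47 (SE 0.21, adjusted p = 0.17). Control replicate 1 stood high in Ccne2, and E2f1 had the smallest difference of the 3 genes.

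**Figure D3:**
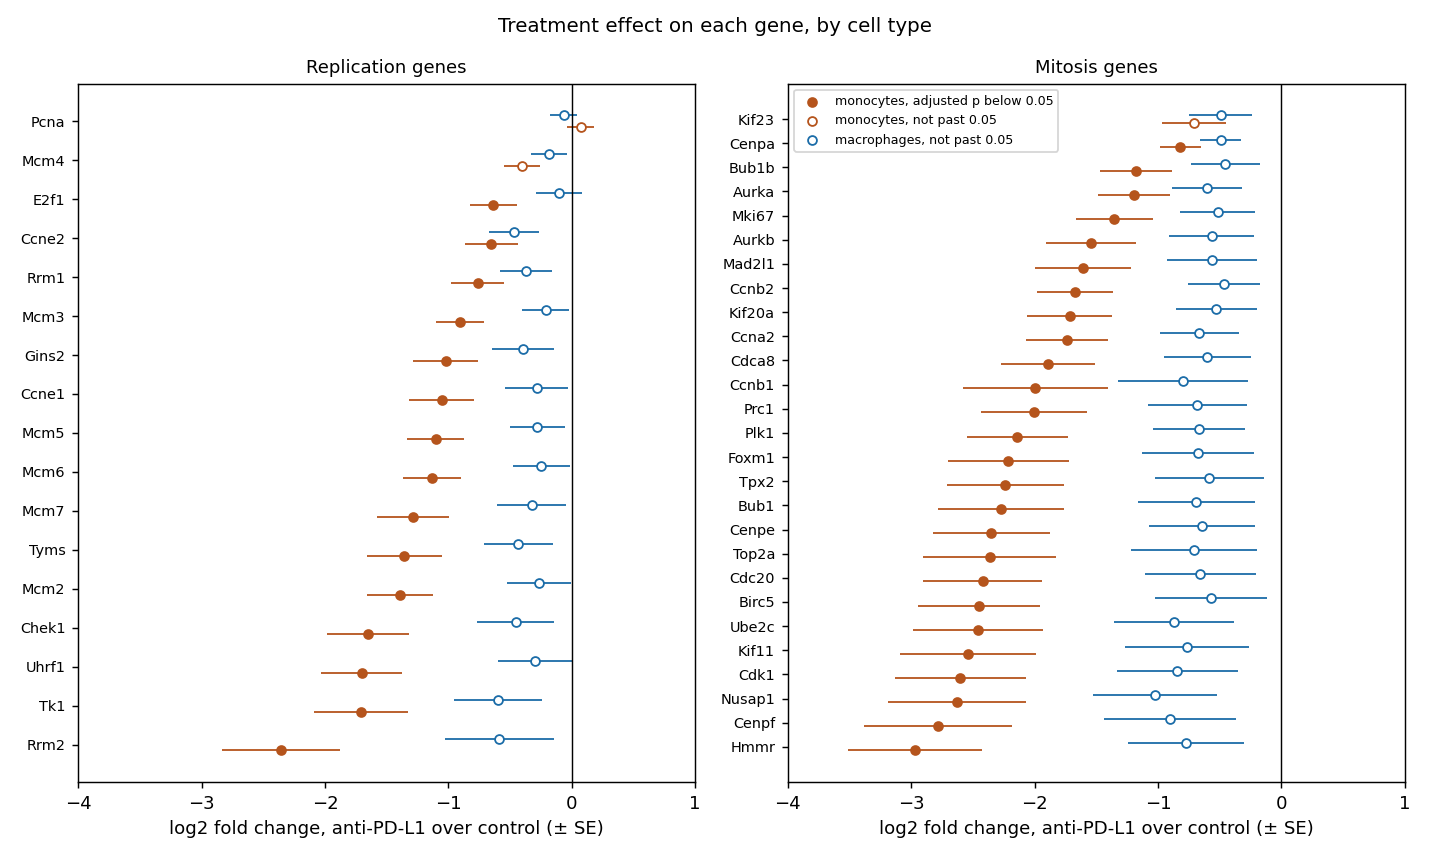
Log2 fold change of anti-PD-L1 over control for the 17 replication genes (left) and 27 mitosis genes (right), in monocytes (orange) and macrophages (blue), with SE from edgeR and filled points for an adjusted p under 0.05. In monocytes 15 replication and 26 mitosis genes are filled and reach down to -2.97 for Hmmr, and no macrophage point is filled.

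Whether treatment acted differently in the 2 cell types was tested directly. The macrophage minus monocyte difference of the log2 changes had a median of 0.83 for replication genes and 1.48 for mitosis genes, and 0 of 17 and 0 of 27 passed by edgeR's test, as did 0% of all 15390 genes. At an unadjusted p under 0.05 there were 10 replication and 19 mitosis genes, beside 6.37% of all genes. DESeq2 and the edgeR fit with the collagen covariate called 0 in either phase, and DESeq2 called 7 of all genes. The lowest adjusted p by edgeR's test among the 44 genes was 0.69. Without monocyte control replicate 5, 2 replication genes and 1 mitosis gene passed. The larger fall in monocytes is therefore not shown to differ from that in macrophages by these tests.

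Within monocytes, cell cycle RNA followed collagen RNA. The slope of each gene on collagen level was fitted within treatment groups, so that it is not set by the group means, and is given as log2 units of the gene per log2 unit of collagen level. In monocytes 10 of 17 replication and 26 of 27 mitosis genes had a slope that passed, all positive, while 13.1% of all genes had one in either direction. The median slope was 0.29 for replication and 0.76 for mitosis genes, and -0.0092 for all genes. Cenpa, at 0.19 (SE 0.06, adjusted p = 0.053), was the mitosis gene that did not pass. Without monocyte control replicate 5, the counts dropped to 2 and 9, beside 4.17% of all genes. Without replicate 1, 2 or 3 of the same group, the replication count was 6, beside 11.7%, 10.8% and 8.94% of all genes.

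In macrophages the slopes were near 0. Of 17 replication and 27 mitosis genes, 0 passed by edgeR's test, while 5.94% of all genes passed. None reached an unadjusted p under 0.05, beside 1891 of all 15390 genes. The voom fit with the replicate block called 0, beside 5.37% of all genes. The median slope was -0.057 for replication and 0.012 for mitosis genes. Macrophage control replicate 4 had the lowest collagen level of its group, 5.83, beside 10.43 in replicate 5, yet their mean mitosis levels were 6.01 and 6.08 log2 CPM.

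The monocyte libraries show this relation one by one. Control replicates 1 to 5 had collagen levels of 10.18, 9.35, 11.07, 10.15 and 7.78, and mean mitosis levels of 4.39, 3.56, 4.94, 5.002 and 1.92 log2 CPM. Their mean replication levels were 4.57, 3.92, 4.88, 4.94 and 3.20 log2 CPM. Control replicate 5 was lowest and replicate 2 next lowest in all 3 measures. Treated replicates 1 to 5 had collagen levels of 5.17, 6.12, 8.29, 6.48 and 7.98, and mean mitosis levels of 1.88, 1.499, 3.29, 2.11 and 2.12 log2 CPM. Treated replicate 3 was highest in both, and replicate 5, with nearly the same collagen level, had a mitosis level like that of replicate 4.

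**Figure D4:**
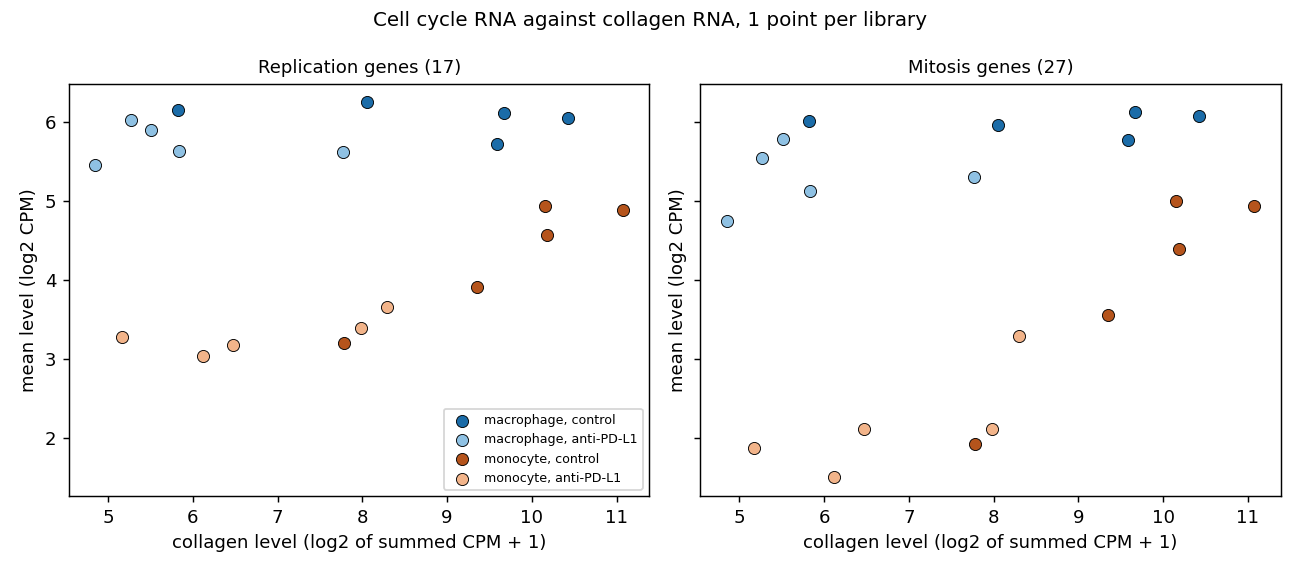
Mean log2 CPM of replication genes (left) and mitosis genes (right) against collagen level, the log2 of the summed CPM of 5 collagens plus 1, with 1 point per library and a colour per group. With both treatments together, monocyte points at collagen levels from 5.17 to 7.98 lie between 1.499 and 2.12 in mitosis level. Those at collagen levels from 8.29 to 11.07 lie between 3.29 and 5.002. Macrophage points lie between 4.75 and 6.13, lower on average in the treated group, which has less collagen RNA, with slopes near 0 within groups.

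Single genes differed in how steeply they followed collagen in monocytes. The steepest mitosis slopes were those of Cenpf, at 1.03 (SE 0.18, adjusted p = 0.00065), Kif11, at 0.95 (SE 0.16, adjusted p = 0.00036), and Hmmr, at 0.92 (SE 0.18, adjusted p = 0.0017). The steepest replication slope was that of Rrm2, at 0.79 (SE 0.14, adjusted p = 0.00070), followed by Chek1, at 0.58 (SE 0.09, adjusted p = 0.00015). Pcna had the flattest, at 0.02 (SE 0.05, adjusted p = 0.89). Mki67, at 0.46 (SE 0.10, adjusted p = 0.0043), lay below Top2a, at 0.86 (SE 0.16, adjusted p = 0.0011), and Mcm5 had a slope of 0.27 (SE 0.08, adjusted p = 0.043).

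The difference between the cell types' slopes was tested in the same fit. It passed for 1 replication gene, Chek1, at 0.55 (SE 0.11, adjusted p = 0.036), and for 2 mitosis genes, Cdc20, at 0.78 (SE 0.15, adjusted p = 0.032), and Kif11, at 0.93 (SE 0.19, adjusted p = 0.044), while 0.234% of all genes passed. At an unadjusted p under 0.05 there were 15 of 17 and 27 of 27, beside 937 of all 15390 genes. The counts that passed were unstable: with the replicate block they were 13 and 25, beside 2.16% of all genes. Leaving out single libraries gave 0 to 12 and 0 to 23, beside 0% to 1.46% of all genes. With 1 slope shared by both cell types, 0 replication and 0 mitosis genes passed by edgeR's test, beside 13% of all genes, 9.33% with a positive slope. An unadjusted p under 0.05 was reached by 2 and 15, beside 26.4% of all genes. DESeq2 called 1 and 2, beside 2574 of all 15390 genes, and limma-voom 0 and 1, beside 2040. Without macrophage control replicate 4 the edgeR fit called 1 and 9, and without monocyte control replicate 4 it called 1 mitosis gene.

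**Figure D5:**
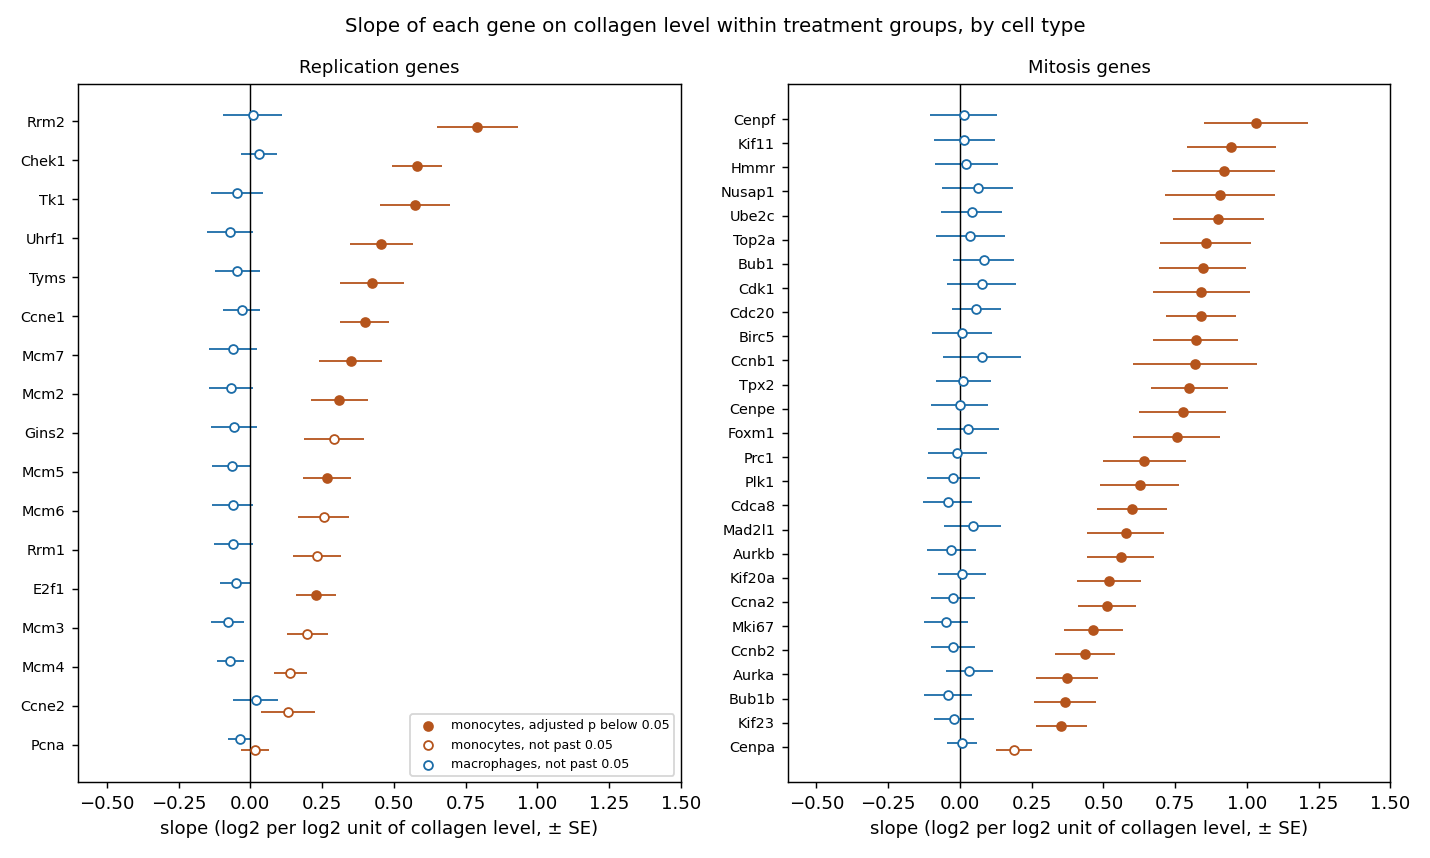
Slope on collagen level within treatment groups, in log2 units per log2 unit with SE, for replication genes (left) and mitosis genes (right), in monocytes (orange) and macrophages (blue), filled for an adjusted p under 0.05. Monocyte slopes reach 1.03 for Cenpf and all macrophage points are open and near 0.

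Further genes of the same processes were lower in treated monocytes too. Of 38 other replication genes, 25 were lower in treated monocytes, beside 15.4% of all tested genes, 0 were higher, and 0 were called in macrophages by edgeR's test. With collagen level as a covariate 0 were called in monocytes, and the median moved from -0.92 to -0.58. Those with the smallest p were Cdca7, a partner of the helicase Hells, at -1.76 (SE 0.31, adjusted p = 0.0034), Dut, which clears dUTP, at -2.28 (SE 0.40, adjusted p = 0.0034), and Hells itself, at -1.83 (SE 0.37, adjusted p = 0.0047). Of 48 other mitosis genes, 43 were lower in treated monocytes, beside the same 15.4%, 0 were higher, and 0 were called in macrophages. With the covariate 0 were called in monocytes, and the median moved from -2.05 to -1.39. Trip13, a remodeller of checkpoint complexes, was at -1.97 (SE 0.32, adjusted p = 0.0032), Cks1b, a partner of cyclin-dependent kinases, at -1.93 (SE 0.34, adjusted p = 0.0034), and the kinetochore gene Cenph at -2.42 (SE 0.45, adjusted p = 0.0038). Between control groups, 37 of 38 and 44 of 48 were higher in macrophages, beside 24% of all genes. The one called lower there was Lmnb1, of the nuclear lamina, at -0.50 (SE 0.14, adjusted p = 0.0079). With the covariate 38 and 46 were called in either direction, and the share of all genes called with it is not given.

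Regulators that hold or release the cycle did not move as a block. Of 30 such genes, 13 were lower and 2 higher in treated monocytes, beside 15.4% and 9.92% of all tested genes, with a median log2 change of -0.17. The 2 higher genes are thus a share below that of all genes, and with collagen level as a covariate 0 of the 30 were called. The higher ones were Rb1 and Rbl1, of the retinoblastoma family, at 0.35 (SE 0.11, adjusted p = 0.032) and 0.35 (SE 0.11, adjusted p = 0.022). Wee1, the kinase that restrains Cdk1, counted 7.19, 2.98, 9.03, 10.6 and 1.54 CPM in control and 1.91, 1.36, 2.78, 0.946 and 1.64 CPM in treated monocytes, a change of -1.86 (SE 0.38, adjusted p = 0.0048). In macrophages only Lin54, of the DREAM complex, was called, at -0.33 (SE 0.09, adjusted p = 0.046). That is 3.33% of the 30, near the 2.92% of all tested genes called lower and below the 4.65% called in either direction. With collagen level as a covariate 0 of the 30 were called in macrophages.

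Inhibitors of the cyclin D kinases differed among themselves in treated monocytes. Cdkn2b counted 5.41, 1.97, 8.60, 6.96 and 0.769 CPM in control and 0.129, 0.0698, 1.03, 0.424 and 0.171 CPM in treated monocytes, a log2 change of -3.67 (SE 0.74, adjusted p = 0.0047), and it was the one regulator with a positive slope on collagen that passed with a slope shared by both cell types. Its control replicate 5 lay inside the treated range. In macrophages Cdkn2b averaged 3.31 CPM in control and 0.636 CPM in treated libraries, which overlapped, and it was not called. Cdkn2a counted 0.817, 0.219, 1.40, 1.36 and 0.368 CPM in control and 0.0647, 0.0698, 0.0936, 0.0326 and 0.0684 CPM in treated monocytes, the treated libraries holding 1 to 3 counts each, so that its fitted fold is not given; all 5 control libraries lay above all treated ones. In macrophages Cdkn2a counted 1.30, 1.03, 1.38, 0.576 and 1.34 CPM in control and 0.297, 0.805, 0.982, 0.707 and 1.32 CPM in treated libraries, which overlapped. Cdkn2c, of the same family, was lower in treated monocytes, at -0.65 (SE 0.21, adjusted p = 0.028), and Cdkn2d did not pass, at 0.07 (SE 0.19, adjusted p = 0.81).

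Some regulators were higher in monocytes, against the direction of the cell cycle genes. Cdkn1a, the inhibitor p21, counted 336, 315, 358, 403 and 329 CPM in control macrophages and 1005, 1283, 842, 828 and 1552 CPM in control monocytes, a macrophage minus monocyte difference of -1.66 (SE 0.15, adjusted p = 3.9e-08). Ccnd3, cyclin D3, differed by -1.41 (SE 0.11, adjusted p = 6.1e-09) in the same direction. Neither changed past the threshold with treatment in monocytes, where Cdkn1a was at 0.28 (SE 0.14, adjusted p = 0.15) and Ccnd3 at 0.21 (SE 0.10, adjusted p = 0.15). Cdkn2c was higher in macrophages, by 2.24 (SE 0.21, adjusted p = 8.8e-08) between control groups. In all, 14 of 30 regulators were higher and 6 lower in control macrophages than in control monocytes, beside 24% and 20% of all tested genes, so the 6 are no larger a share than among all genes. With the collagen covariate 22 were called in either direction, and the share of all genes called in that fit is not given.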

How the data were processed

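Per the labels' protocols a stranded kit was used on total RNA (the molecule is labelled polyA RNA); reads were aligned with GSNAP to GRCm38, per the submitters' processing notes. Per the file headers, the authors deposited counts of uniquely aligned reads per gene and nRPKM values (RPKM with the authors' scaling), which were used only for levels between genes. The sources used here give no strand setting or annotation; 15 of the 44 genes overlap another gene and 5 have a named pseudogene, so their reads are uncertain. Counts were used unchanged in R 4.3.3: edgeR 4.0.16 (filterByExpr, TMM, 15390 genes, quasi-likelihood test, 1 mean per group over all 20 libraries, Benjamini-Hochberg adjustment, threshold 0.05), with DESeq2 1.42.0 and limma 3.58.1 as alternatives; fits were tested on simulated data. The 44 genes, the lists and the tests were chosen with earlier results of these data known. Named genes are a set given library by library, further members by their calls, and of other lists the 3 called genes with the smallest p and called exceptions. A fit with a collagen slope for each cell type was added after seeing the data. Neighbouring sample numbers in the titles pair libraries: all 10 pairs correlated in their deviations from group means (0.22 to 0.72), and 18 of 20 libraries correlated best with their neighbour. Replicates of a group differed by at least 22.06 in chi-square per degree of freedom. Levels at or under 3 counts in a library were treated as the floor of detection, which covers counting error only.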

Additional observations from a re-analysis of the deposited data

Results flagged for a closer look

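For some of the genes given library by library, the mean level of each phase and collagen level, 88 groups of 5 libraries were examined. Of these, 11 held 1 library far from the other 4, all in single genes and none in the mean levels or collagen level. Chance gives about 1 in 20 for a single group. Genes of the cycle vary together and 9 of the 11 rest on the same library, so the 11 cannot be set against that rate. Treated monocyte replicate 3 was far above the rest of its group in 9 genes. It had 55.1 CPM of Top2a (others up to 19.3), 20.5 CPM of Cdk1 (others up to 7.80), 19.3 CPM of Ccna2 (others up to 11.2) and 6.84 CPM of Ccnb2 (others up to 4.17). It also had 3.93 CPM of Plk1, 2.43 CPM of Hmmr, 10.7 CPM of Foxm1, 8.37 CPM of Cdc20 and 16.3 CPM of Rrm2. The same library had the highest collagen level of its group, 8.29.

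Macrophage control replicate 3 was far below its group in Ccna2, at 103.9 CPM (others from 128.9 CPM). Macrophage control replicate 1 was far above its group in Ccne2, at 36.0 CPM (others up to 22.2 CPM).

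The slope on collagen level differed between cell types by a test of the difference for Chek1 (0.55 log2 units per log2 unit higher in monocytes), Cdc20 (0.78) and Kif11 (0.93).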

How the results depend on the processing

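Counts of genes higher in macrophages than in monocytes stayed within 1.5 times under all alternatives run, with 16 to 17 replication and 22 to 27 mitosis genes when single libraries were left out. In treated monocytes, leaving out single libraries gave 12 to 16 replication and 25 to 27 mitosis genes as lower, and RLE scaling, DESeq2, limma-voom, other filters and the fit of 2 groups moved neither count by over 1.5 times. The replicate block gave 8 and 13, and it changed no other count by over 1.5 times except that of differing collagen slopes (13 and 25). With the collagen covariate, the fibroblast covariate, without the 8 or the 6 collagen-rich control libraries, or with a collagen slope for each cell type as covariates, 0 and 0 were called, the last with medians of -0.03 and 0.08. The covariate fits take out what collagen level and treatment share, and the fits without libraries have fewer samples.

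In macrophages, DESeq2 called 1 mitosis gene and the fit of 2 groups 18 mitosis and 2 replication genes; leaving out single libraries gave 0 to 0 in both phases. The difference of treatment effects gave 0 to 2 replication and 0 to 1 mitosis genes without single libraries. The shared collagen slope gave 0 to 1 and 0 to 9, with DESeq2 1 and 2, with limma-voom 1 mitosis gene, and in monocyte libraries alone 6 and 24. The monocyte slope gave 2 to 14 replication and 9 to 27 mitosis genes, beside 4.17% to 14.3% of all genes. The macrophage slope gave 0 to 0, beside 2.04% to 6.21%, and their difference 0 to 12 and 0 to 23, beside 0% to 1.46%. The cause of these moves was not tested.

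The direction in monocytes turned above 0, with no adjusted p under 0.05, for 36 genes without the 8 control libraries: Mcm2 0.017, Mcm6 0.033, Mcm7 0.21, Gins2 0.055, Rrm1 0.30, Rrm2 0.37, Tyms 0.32, Tk1 0.16, Uhrf1 0.045, E2f1 0.37, Ccne1 0.38, Ccne2 0.087, Mki67 0.14, Top2a 0.88, Cdk1 0.60, Ccna2 0.072, Ccnb1 1.26, Plk1 0.19, Hmmr 0.65, Aurka 0.51, Aurkb 0.40, Bub1 0.73, Bub1b 0.52, Cdc20 0.088, Cdca8 0.42, Cenpe 0.54, Cenpf 0.57, Birc5 0.24, Tpx2 0.50, Kif11 0.64, Kif20a 0.20, Nusap1 0.65, Prc1 0.48, Foxm1 0.42, Ube2c 0.81 and Mad2l1 0.56. It turned for E2f1 without the 6 (0.019), and for 25 genes with a collagen slope for each cell type: Rrm2 0.11, Tk1 0.091, E2f1 0.11, Ccne1 0.19, Chek1 0.078, Mki67 0.12, Top2a 0.36, Cdk1 0.027, Ccnb1 0.53, Aurka 0.040, Aurkb 0.22, Bub1 0.29, Bub1b 0.028, Cdc20 0.093, Cdca8 0.028, Cenpe 0.055, Cenpf 0.32, Birc5 0.048, Tpx2 0.25, Kif11 0.34, Nusap1 0.083, Prc1 0.054, Foxm1 0.21, Ube2c 0.31 and Mad2l1 0.19. These are log2 changes. Without the 8 control libraries, the control monocytes are replicate 5 alone. Its mean mitosis level of 1.92 and mean replication level of 3.20 log2 CPM lie within the treated range. Genes of the cycle vary together, so the 36 are not separate results. All 44 genes passed the filter on low counts, and depth was 30191509 counts or more.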
